A study of Homo sapiens with 4 samples.

Results

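Genes of DNA replication and of the passage from G1 into S phase were compared between SUM149PT cells with a stable knockdown of EMP2 and cells with a control vector. The set holds 59 genes, named by symbol: the proteins that license and fire replication origins, the replication fork, deoxynucleotide synthesis, the E2F and pocket proteins, the G1/S cyclins and kinases, and UHRF1. All 59 were among the 25343 genes of the table and all 59 were tested, since each reached 1 CPM in 2 or more of the 4 libraries. CPM are read counts scaled by library size, here after TMM scaling of the totals.

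SUM149PT is an established line from an inflammatory breast cancer. Cells of both groups were infected with a lentivirus that carried either a control construct (2 libraries) or a short hairpin RNA against EMP2 (2 libraries). Both knockdown libraries are labelled with 1 hairpin, and all cells grew in Ham's F12K medium with 5% serum, 5 µg/mL insulin and 1 µg/mL hydrocortisone. Nothing in the labels says whether the cells were clones or the libraries separate cultures, and every p-value here rests on a spread between libraries that may be technical.

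The libraries held 13360907 to 14647053 reads. A gene was called when its limma adjusted p over all 13661 genes tested was under 0.05. EMP2, a tetraspan membrane protein related to PMP22, measured 126.1 and 124.6 CPM in control libraries and 23.0 and 22.6 CPM after knockdown (log2 change -2.43, SE 0.051, limma adjusted p = 3.7e-15). All 7 epithelial markers lay above 138 CPM, with EPCAM at 236.2 to 249.8 and KRT5 at 911 to 958 CPM. Of the 7, CDH1 (log2 change 0.39), KRT6A (0.28), KRT17 (0.31) and KRT18 (0.19) were called higher and EGFR (-0.63) lower, and the sum of the 7 was 3294 and 3360 CPM in control libraries and 3705 and 3747 CPM after knockdown. The progesterone receptor PGR had 0 or 1 read. The estrogen receptor ESR1 was low, at 18 to 73 reads, and was called higher. It measured 1.94 and 1.36 CPM in control libraries and 5.17 and 5.47 CPM after knockdown (log2 change 1.45, limma adjusted p = 3.41e-05). Of 5 leukocyte markers CD3E and MS4A1 were at 0 reads and PTPRC at 1 to 4 reads, but CD68 fell from 81.4 and 84.7 to 61.7 and 60.4 CPM. Of 5 fibroblast markers COL1A2 was at 0 reads, DCN fell from 75.4 and 70.0 to 42.7 and 40.8 CPM, and COL1A1, at 38.6 and 43.8 against 44.1 and 46.4 CPM, was not called. The summed fibroblast markers were at 115.0 and 114.6 CPM in control libraries and 87.1 and 88.1 CPM after knockdown. The summed leukocyte markers were at 85.8 and 89.0 against 66.3 and 63.6 CPM. The fall in the fibroblast sum was that of DCN: COL1A1 did not fall, PDGFRB had 4 to 12 reads and LUM 0 to 2 reads. The fall in the leukocyte sum was mostly that of CD68, and CD14, at 40 to 63 reads, was not called. The part of these markers in the results was not tested. In bulk RNA, fewer cells in S phase and less mRNA per cell cannot be told apart.

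Before S phase, the origin recognition complex, CDC6 and CDT1 load the MCM2 to MCM7 helicase onto origins, a step called licensing. The kinases CDC7-DBF4 and CDK2 then fire the origins by joining CDC45 and the GINS complex to the helicase, and polymerases copy the DNA behind it. Most of these genes are targets of E2F factors, which the pocket protein RB1 holds inactive until the D-type cyclins with CDK4 or CDK6, and then the E-type cyclins with CDK2, phosphorylate it.

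The set as a whole lay level between the groups, and within it genes moved in both directions by small amounts. In this test 13 members were higher and 11 lower in the knockdown, 40.7% of the 59, beside 33.4% of all genes tested (16.6% higher and 16.8% lower). CPM levels bear on that share: among the 8903 genes with a mean CPM in the members' range, 12.8 to 440.1, 40.1% were called. The members' share is thus near the background. With the TMM scaling undone, so that CPM were taken over the plain library totals, 16 members were higher and 6 lower. The number lower was 7 without control replicate 1, 5 without control replicate 2 and 7 without knockdown replicate 1.

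The members' median log2 change was -0.0074, against 0.0037 over all genes tested and 0.0035 over the genes in the same CPM range. Log2 changes are knockdown minus control on the log2(CPM + 0.5) scale. Summed over the 59 members, CPM was 5314 and 5433 in the controls and 5363 and 5379 in the knockdowns, so the groups overlapped. The median size of a change, without its sign, was 0.101 for the members, 0.119 for the genes in the same CPM range and 0.142 for all genes tested. Called changes of at least 0.32 on the log2 scale were seen in 6 members, 4 of them higher and 2 lower, and no called change reached 1.5-fold. Of all genes tested, 14.2% were called with a change of at least 0.32. Both knockdowns lay above both controls in 22 members and below them in 23, and the groups overlapped in 14. Over all genes tested, 65.6% did not overlap. Among the 8903 genes in the members' CPM range, 3229 lay above, 3117 below and 2557 overlapped.

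**Figure D1:**
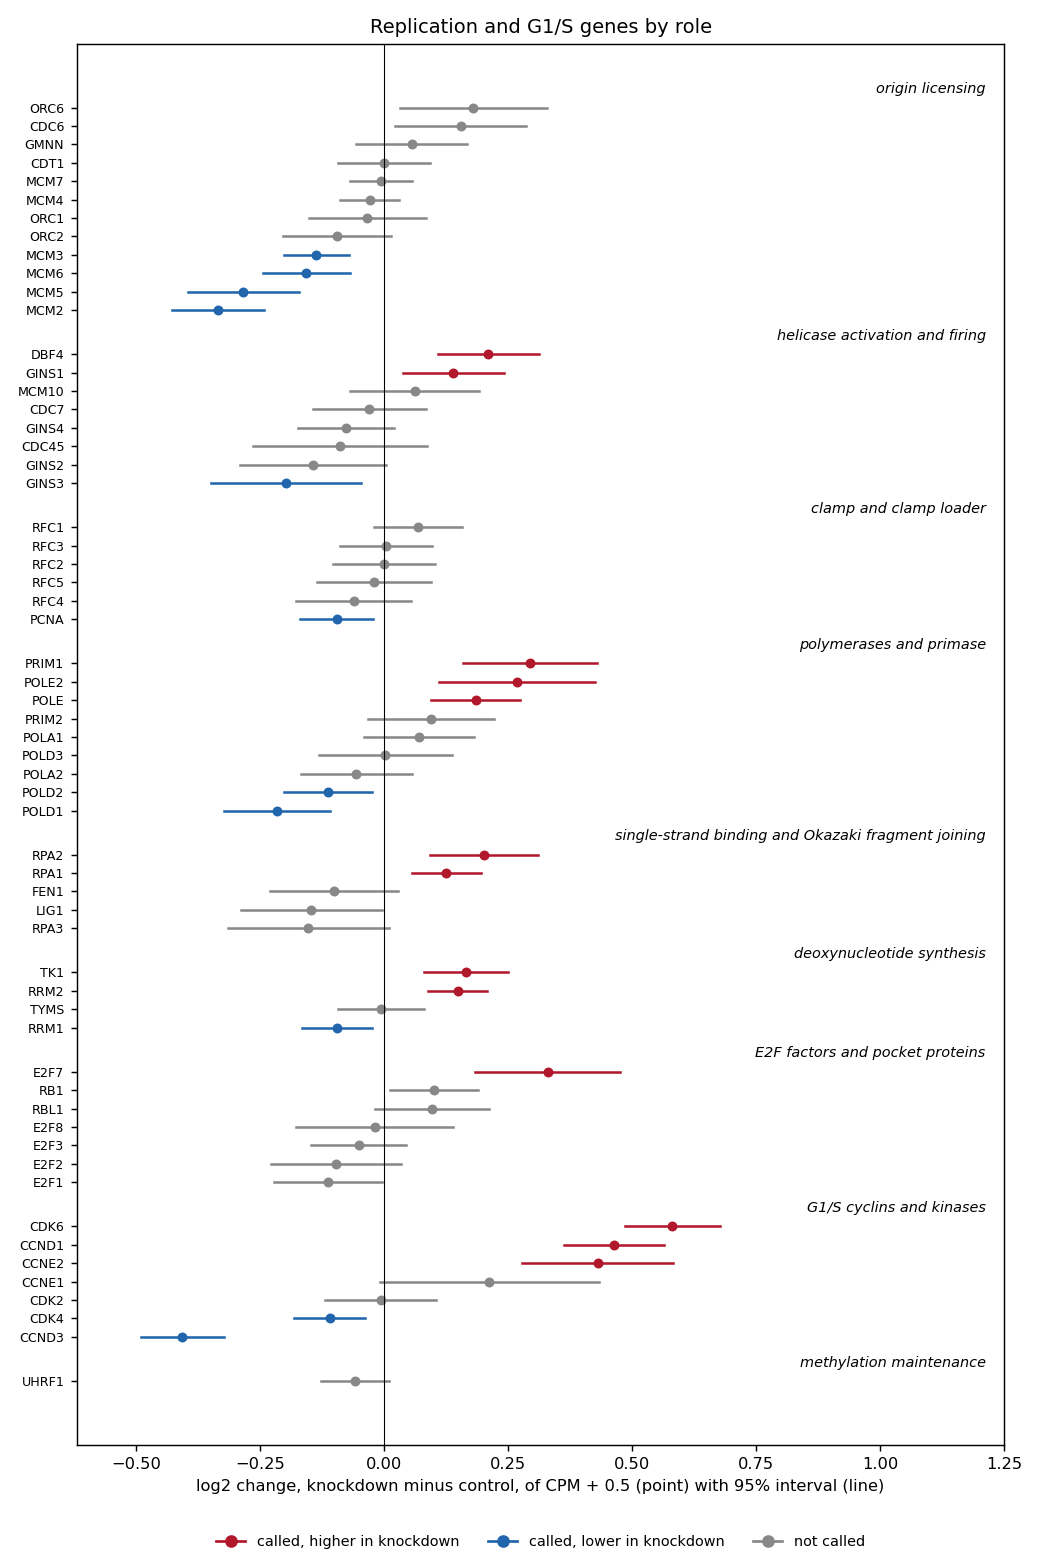
Log2 change of each of the 59 genes (knockdown minus control, CPM + 0.5; points) with its 95% interval (lines), grouped by role, with called genes in colour. The widest range is among the G1/S cyclins and kinases, from -0.41 for CCND3 to 0.58 for CDK6, and most other genes lie close to 0.

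**Figure D2:**
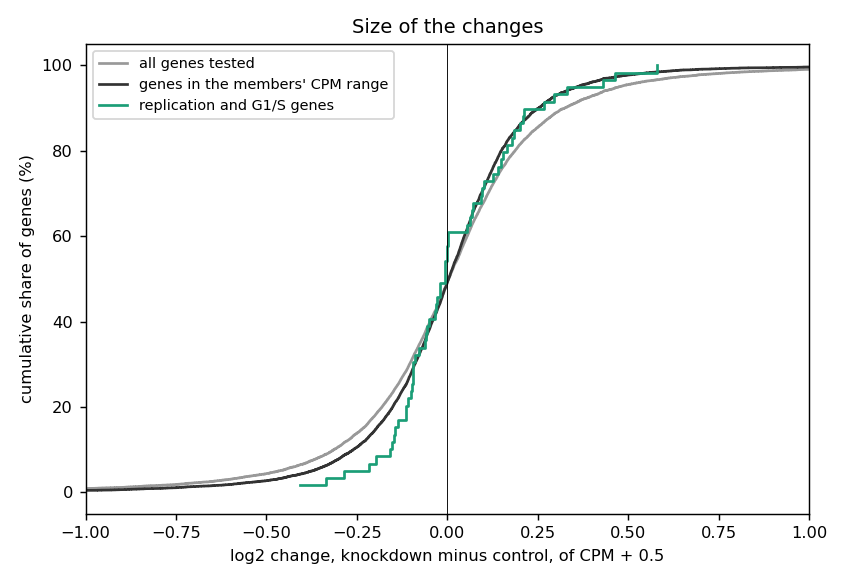
Cumulative share of genes (%) by log2 change (CPM + 0.5) for the 59 members, for all 13661 genes tested and for the 8903 in the members' CPM range; changes beyond 1 either way are not shown. The curves cross near 0, with medians of -0.0074, 0.0037 and 0.0035.

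The largest fitted changes of the set were in the cyclins and kinases of G1, where 3 of 7 members rose and 2 fell. The share called was 71.4%, against 33.4% of all genes tested and 40.1% of those in the members' CPM range. CDK6, a kinase partner of the D-type cyclins (GRCh38 chromosome 7, 92604921 to 92836594, minus strand), measured 74.3 and 80.0 CPM in control libraries and 113.6 and 117.5 CPM after knockdown. Both knockdowns lay above both controls, and the mean rose by 49.8% (log2 change 0.58, SE 0.045, limma adjusted p = 3.81e-08). CDK4, the other kinase partner of these cyclins, measured 163.0 and 164.4 CPM in control libraries and 151.6 and 151.6 CPM after knockdown. It fell by 0.11 on the log2 scale (SE 0.034, limma adjusted p = 0.0179). Leaving out control replicate 1 (limma adjusted p = 0.0536) or control replicate 2 (0.0883) ended the CDK4 call, as did DESeq2 (0.188) and undoing TMM (0.0510). The strand setting is not given, and 43.2% of the exonic bases of CDK4 also belong to TSPAN31 on the opposite strand. TSPAN31 measured 23.4 and 22.9 CPM in control libraries and 23.5 and 26.4 CPM after knockdown and was not called.

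The D-type cyclins moved in opposite directions. Cyclin D1 (CCND1; chromosome 11, 69641087 to 69654474, plus strand) measured 71.9 and 70.2 CPM in control libraries and 102.4 and 94.1 CPM after knockdown, a rise of 38.3% in the mean (log2 change 0.46, SE 0.048, limma adjusted p = 1.03e-06). Cyclin D3 (CCND3; chromosome 6, 41934933 to 42050357, minus strand) measured 148.4 and 147.8 CPM in control libraries and 115.2 and 108.0 CPM after knockdown, and its log2 change was -0.41 (SE 0.039, limma adjusted p = 5.2e-07). Neither gene's groups overlapped. Of the exonic bases of CCND1 10.3% also belong to LTO1 on the opposite strand. Cyclin D2 (CCND2), which is no member of the set, had 0 reads in each library, and 3 reads, the limit that a count of 0 allows for counting error, came to 0.208 to 0.227 CPM.

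Within each library the log2 ratio of CCND1 to CCND3 was -1.04 and -1.07 in the controls and -0.17 and -0.20 in the knockdowns. The difference of 0.87 on the log2 scale does not depend on gene length, which is the same in every library. The log2 ratio of CDK6 to CDK4 was -1.13 and -1.04 in the controls and -0.42 and -0.37 in the knockdowns, a difference of 0.69. These pairs were set side by side with their changes known, so the differences are given as values with no test.

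Of the cyclins that act with CDK2, cyclin E2 (CCNE2) rose and cyclin E1 (CCNE1) did not pass the test. CCNE2 measured 22.6 and 22.1 CPM in control libraries and 30.2 and 30.4 CPM after knockdown (log2 change 0.43, SE 0.072, limma adjusted p = 0.000185). Of its exonic bases 37.1% also belong to genes on the opposite strand, of which INTS8 was not called (82.0 and 78.3 CPM in the controls, 81.1 and 82.0 CPM in the knockdowns). CCNE1 was the lowest member, at 11.6 and 12.1 CPM in control libraries and 13.3 and 14.4 CPM after knockdown. Its log2 change of 0.21 had a 95% interval of -0.0099 to 0.43 (limma adjusted p = 0.135), and that interval reaches the log2 change fitted for CCNE2. CDK2 itself measured 59.005 and 63.0 CPM in control libraries and 62.6 and 58.8 CPM after knockdown, with overlapping groups.

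CDK6, CCND1, CCND3 and CCNE2 were the 4 members whose call held under all 14 alternative settings tried. The adjusted p of these 4 was highest in limma without an abundance trend, between 0.0204 for CCNE2 and 0.0292 for CCND1. The other 20 called members lost the call under at least 1 setting, and none of the 24 changed direction. Beside those 4, DESeq2 called MCM2, MCM3, MCM5 and RRM2 and no other member, and limma without the trend called PRIM1, POLE2 and E2F7 and no other.

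**Figure D3:**
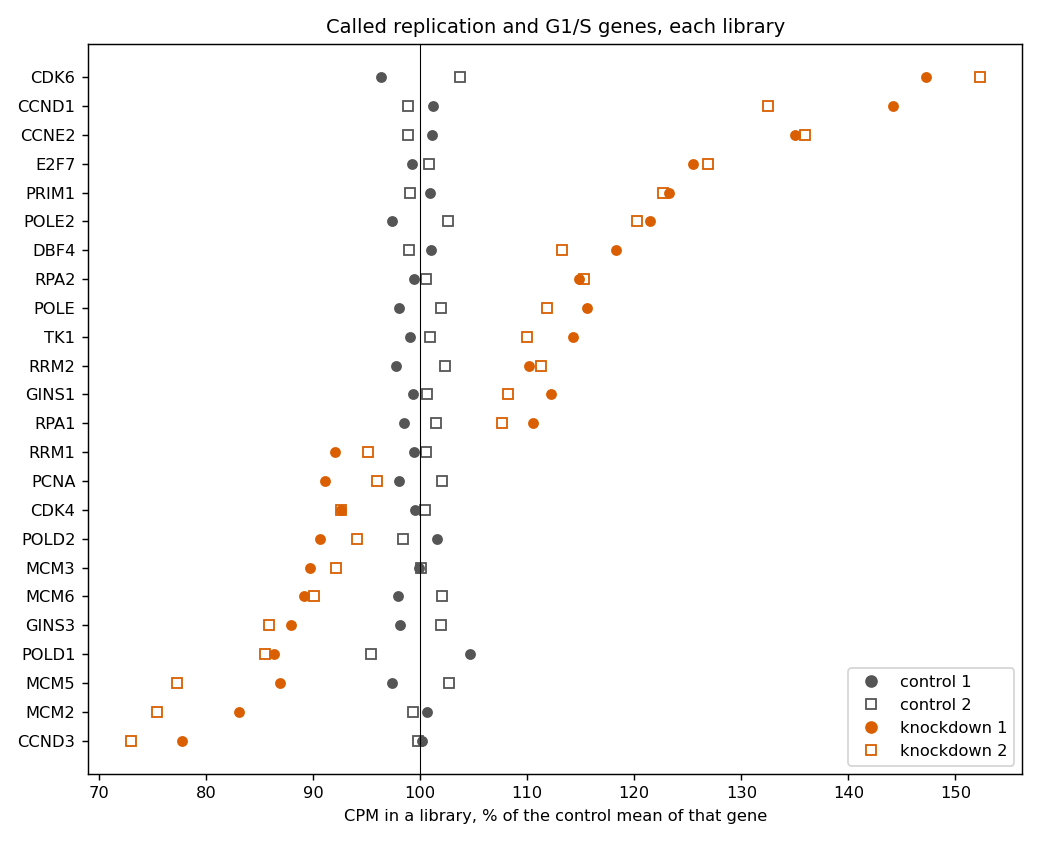
CPM of the 24 called genes in each library, as a percentage of that gene's control mean (circles, replicate 1; squares, replicate 2; grey, control; orange, knockdown). The axis does not start at 0. In all 24 genes both knockdowns lie on the same side of both controls, from CDK6 (mean 49.8% above) to CCND3. The genes were chosen by their call in these same libraries, so the separation is no further support for the calls. Over all genes tested, 65.6% did not overlap.

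Of 12 origin licensing genes 4 fell and the 8 others were not called. The share called, 33.3%, is that of all genes tested (33.4%). With TMM undone ORC6 (limma adjusted p = 0.0355) and CDC6 (0.0466) were called higher. The 4 that fell in the main test, MCM2, MCM3, MCM5 and MCM6, are subunits of the helicase. MCM2 (chromosome 3, 127598223 to 127622436, plus strand) measured 140.6 and 138.7 CPM in control libraries and 116.1 and 105.4 CPM after knockdown (log2 change -0.34, SE 0.044, limma adjusted p = 1.56e-05). MCM5 (chromosome 22, 35400063 to 35425430, plus strand) measured 94.1 and 99.3 CPM in control libraries and 84.1 and 74.8 CPM after knockdown (log2 change -0.28, SE 0.053, limma adjusted p = 0.000472). For both genes the groups did not overlap, and knockdown replicate 2 lay farther from the controls than knockdown replicate 1.

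MCM3 measured 244.5 and 245.1 CPM in control libraries and 219.6 and 225.6 CPM after knockdown (log2 change -0.14, limma adjusted p = 0.00223). MCM6 measured 97.2 and 101.3 CPM in control libraries and 88.5 and 89.4 CPM after knockdown (log2 change -0.16, limma adjusted p = 0.00751). It was not called when control replicate 2 was left out (limma adjusted p = 0.0787) or with DESeq2 (adjusted p = 0.131). Without the abundance trend, limma called none of these 4, with adjusted p from 0.0533 for MCM2 to 0.120 for MCM3. Of the exonic bases of MCM2 23.6% also belong to genes on the opposite strand; among them TPRA1 measured 26.4 and 25.1 CPM in control libraries and 28.7 and 30.0 CPM after knockdown and was not called.

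The remaining subunits of the hexamer were not called. MCM4 measured 434.1 and 450.7 CPM in control libraries and 427.6 and 439.1 CPM after knockdown, with a 95% interval of the log2 change from -0.089 to 0.029. MCM7 measured 266.7 and 263.8 CPM in control libraries and 259.9 and 268.0 CPM after knockdown, with an interval from -0.070 to 0.056. Both groups overlapped in both genes, and both intervals lie above the log2 changes fitted for the 4 subunits that fell. Whether the subunits differ from each other was not tested. MCM10, a fork protein that is no part of the hexamer, was also not called (log2 change 0.061).

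**Figure D4:**
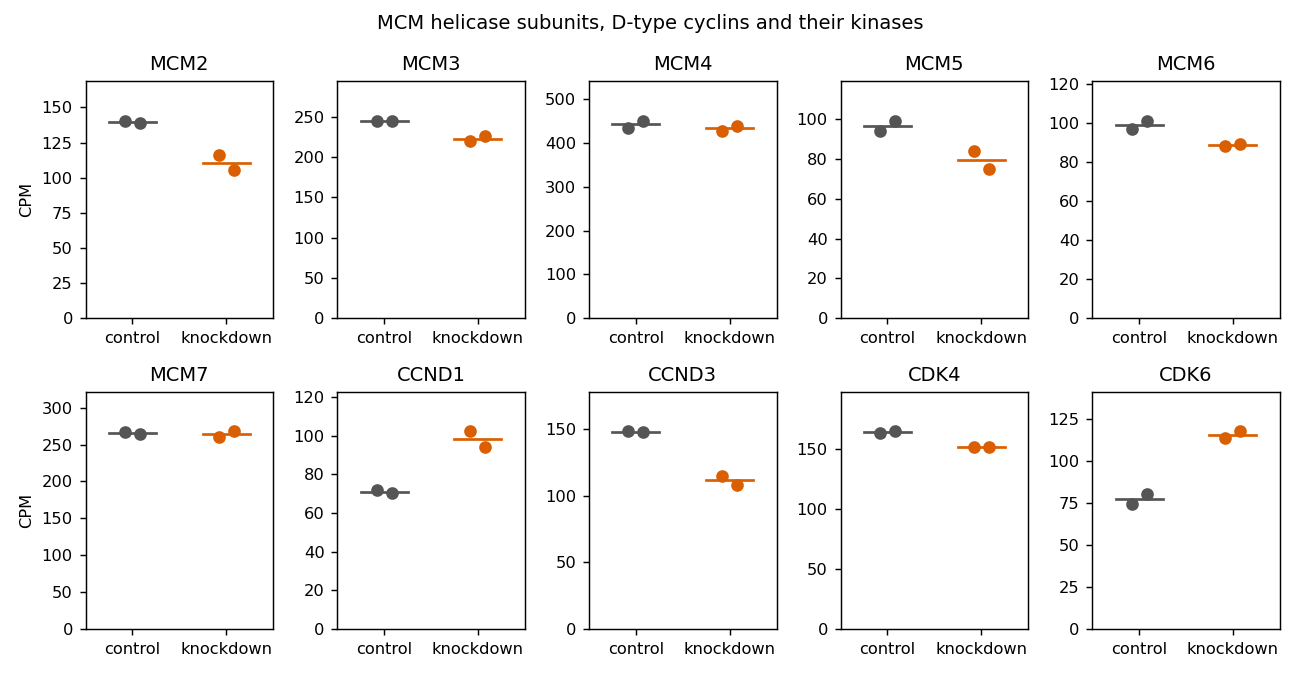
CPM in each library (points) and group means (lines) for the 6 MCM subunits of the helicase and for the D-type cyclins and their kinases; each axis starts at 0 and has its own scale. The mean of MCM2 fell by 20.7% and that of MCM5 fell by 17.9%, MCM4 and MCM7 lie level, and CCND1 and CDK6 stand above the controls while CCND3 stands below.

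None of the loading factors was called in the main test, but CDC6 and ORC6 changed by amounts similar in size to MCM3 and MCM6. Both knockdowns lay above both controls in CDC6 and in ORC6, but the groups did not overlap in 65.6% of all genes tested. CDC6 measured 46.8 and 52.9 CPM in control libraries and 57.5 and 53.3 CPM after knockdown and was not called (log2 change 0.15, limma adjusted p = 0.0702). It was called without control replicate 2 (limma adjusted p = 0.00861) and without knockdown replicate 2 (0.0209). ORC6, the smallest subunit of the origin recognition complex, was at a log2 change of 0.18 (limma adjusted p = 0.0599). ORC1, which binds CDC6 in the complex, measured 54.0 and 59.5 CPM in control libraries and 55.9 and 54.8 CPM after knockdown, and ORC2 was at a log2 change of -0.096. CDT1, the loading factor that is destroyed in S phase, was at -0.0013, and its inhibitor geminin (GMNN) at 0.055.

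Promoter sequences were read to see what the licensing genes that fell share, beside MCM7, which did not, and beside CDK6 and CCND3, the largest rise and fall. RefSeq's table (GRCh38.p14) held the 250 bases before and 50 after the start of 49 of the 59 members. Among the called members it held none for MCM5, CCND1, CCNE2 and RPA2, so these are missing from every promoter count below. Each sequence runs 5′ to 3′ on the strand of its gene, at the first start listed for that gene. Other starts of the members were not searched. Capitals mark matches to the E2F motif, searched as TTTCCCGC, TTTCGCGC, TTTGCCGC and TTTGGCGC on both strands.
MCM2 (chr3:127598161-127598460, plus strand): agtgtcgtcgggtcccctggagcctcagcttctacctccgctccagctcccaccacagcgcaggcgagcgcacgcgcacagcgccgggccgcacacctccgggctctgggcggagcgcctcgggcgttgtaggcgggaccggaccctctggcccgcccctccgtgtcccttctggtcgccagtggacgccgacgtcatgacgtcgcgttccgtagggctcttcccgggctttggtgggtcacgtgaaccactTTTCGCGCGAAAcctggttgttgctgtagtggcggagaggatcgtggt
MCM3 (chr6:52284693-52284992, minus strand): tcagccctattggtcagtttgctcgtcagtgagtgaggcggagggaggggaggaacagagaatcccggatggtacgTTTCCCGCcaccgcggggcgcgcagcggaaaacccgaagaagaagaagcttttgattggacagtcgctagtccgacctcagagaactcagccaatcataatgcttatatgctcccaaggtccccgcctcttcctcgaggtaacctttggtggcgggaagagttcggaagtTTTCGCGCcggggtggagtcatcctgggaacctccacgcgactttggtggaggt
MCM6 (chr2:135876394-135876693, minus strand): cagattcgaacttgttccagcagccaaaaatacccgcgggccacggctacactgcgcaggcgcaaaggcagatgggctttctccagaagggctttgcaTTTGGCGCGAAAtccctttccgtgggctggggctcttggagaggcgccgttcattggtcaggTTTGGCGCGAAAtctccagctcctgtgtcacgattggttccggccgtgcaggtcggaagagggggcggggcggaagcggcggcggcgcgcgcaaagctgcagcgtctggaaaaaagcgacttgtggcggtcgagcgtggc
MCM7 (chr7:100101348-100101647, minus strand): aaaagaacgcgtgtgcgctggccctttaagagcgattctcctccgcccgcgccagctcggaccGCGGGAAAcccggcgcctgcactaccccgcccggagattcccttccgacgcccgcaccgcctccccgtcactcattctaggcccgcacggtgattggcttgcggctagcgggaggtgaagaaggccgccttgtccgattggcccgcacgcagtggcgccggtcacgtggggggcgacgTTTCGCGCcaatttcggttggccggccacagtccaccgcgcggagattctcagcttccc
CDK6 (chr7:92836524-92836823, minus strand): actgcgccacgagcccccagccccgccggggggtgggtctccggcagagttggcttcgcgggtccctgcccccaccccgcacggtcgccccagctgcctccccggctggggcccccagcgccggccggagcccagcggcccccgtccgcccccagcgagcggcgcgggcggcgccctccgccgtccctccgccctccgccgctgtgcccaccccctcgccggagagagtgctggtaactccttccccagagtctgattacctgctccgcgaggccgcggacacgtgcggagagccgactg
CCND3 (chr6:42048639-42048938, minus strand): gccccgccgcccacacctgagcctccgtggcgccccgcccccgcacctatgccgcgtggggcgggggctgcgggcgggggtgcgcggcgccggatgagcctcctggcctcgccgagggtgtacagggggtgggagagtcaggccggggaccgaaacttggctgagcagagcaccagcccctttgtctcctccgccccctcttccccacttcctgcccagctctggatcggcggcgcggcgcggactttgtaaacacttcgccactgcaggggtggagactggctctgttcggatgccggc

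All 4 MCM promoters shown held the motif, at 2 matches in MCM2, MCM3 and MCM7 and 4 in MCM6. In MCM2 matches on the 2 strands overlap just after the start, and MCM6 holds 2 such overlapping pairs before it. The windows of CDK6 and CCND3 held no match, which says only that these letters are not in them.

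Of the 49 members with a promoter, 22 (44.9%) held at least 1 match. The share was 4.80% over the 14517 promoters of tested genes and 3.31% over all 35116 promoters of that length. The members include known E2F targets, so this describes the set and is no test. With the window shortened to 150 bases before the start the members' share was again 44.9%, against 3.33% of the promoters of tested genes. The CCAAT box (CCAAT, both strands) was in 51.0% of the members' promoters and 34.7% of those of tested genes, and the GC box (GGGCGG) in 71.4% and 65.4%. The CHR motif (TTTGAA), known from genes of G2 and mitosis, was in 6.12% and 10.5%.

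Members with an E2F match were found among those that rose, those that fell and those not called. Of the 22 with a match 3 rose, 5 fell and 14 were not called, with a median log2 change of -0.054. Of the 27 without one 7 rose, 5 fell and 15 were not called, with a median of 0.055. MCM3 and MCM7, with matches close to the start at 4 and 9 bases before it, are an example of a called and an uncalled gene.

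**Figure D5:**
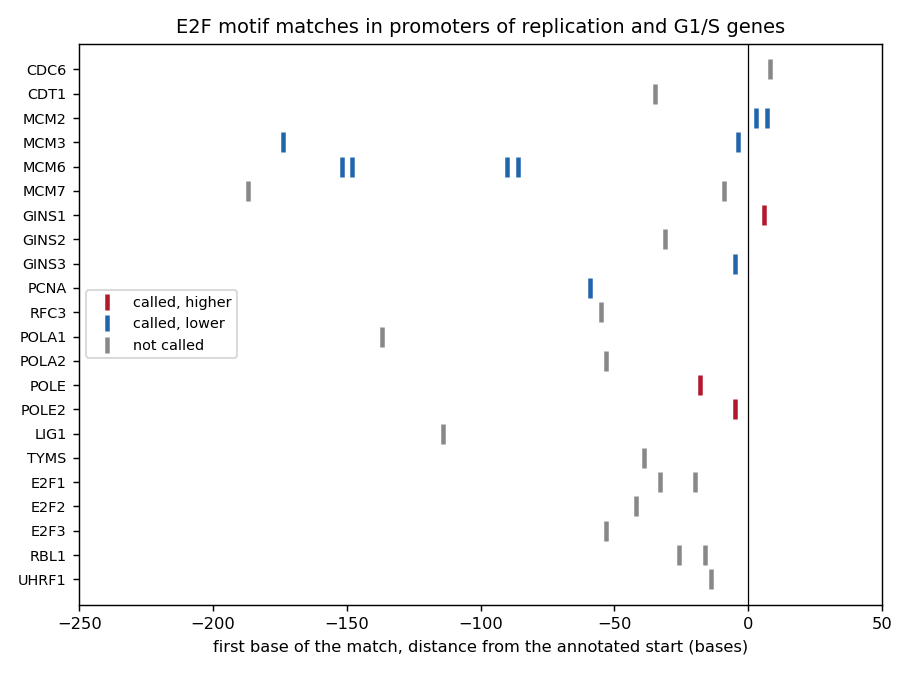
First base of each E2F motif match (vertical marks) against the annotated start of the gene in bases, for the 22 members whose promoter window holds one; colour gives the call. Genes called higher, called lower and not called are interspersed, and the marks are densest close to the start.

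Of 8 origin firing genes 2 rose, 1 fell and 5 were not called. The share called, 37.5%, is near the background (33.4% of all genes tested and 40.1% of those in the members' CPM range). DBF4, the subunit that activates the kinase CDC7, measured 61.8 and 60.5 CPM in control libraries and 72.3 and 69.2 CPM after knockdown (log2 change 0.21, SE 0.048, limma adjusted p = 0.00276), and CDC7 itself was at -0.030 and not called. The DBF4 call was lost with DESeq2 (adjusted p = 0.0932). Of the 4 GINS subunits, GINS1 was higher (0.14, limma adjusted p = 0.0338) and GINS3 lower (-0.20, limma adjusted p = 0.0410), while GINS2 was at -0.14 and GINS4 at -0.078 without passing. The calls of both were fragile. GINS1 was no longer called when control replicate 1 (limma adjusted p = 0.126), control replicate 2 (0.0762) or knockdown replicate 1 (0.174) was left out. That of GINS3 was lost whichever library was left out, with adjusted p of 0.0756 and 0.195 for control replicates 1 and 2 and of 0.0738 and 0.142 for knockdown replicates 1 and 2. CDC45, which joins the helicase at firing, was at -0.090 with overlapping groups.

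Of the 9 polymerase and primase genes 3 were higher and 2 lower. The share called was 55.6%, against 33.4% of all genes tested and 40.1% of those in the members' CPM range. Those higher were both polymerase epsilon genes of the set and 1 of the 2 primase genes, and those lower were 2 of the 3 polymerase delta genes. DESeq2 called none of these 5. Further subunits outside the set were not called: POLE3 was at -0.061, POLE4 at 0.089 and POLD4 at -0.065. PRIM1, the catalytic subunit of primase, measured 30.0 and 29.5 CPM in control libraries and 36.7 and 36.5 CPM after knockdown (log2 change 0.29, SE 0.064, limma adjusted p = 0.00184). Its partner PRIM2 was at 0.094 and not called. Of the exonic bases of PRIM1 21.6% also belong to other genes; of these NACA, on the same strand, fell from 576.4 and 576.4 to 518.6 and 511.9 CPM. POLE, the leading-strand polymerase, rose from 85.4 and 88.8 to 100.6 and 97.4 CPM (log2 change 0.18, limma adjusted p = 0.00281), and its subunit POLE2 from 22.2 and 23.4 to 27.7 and 27.4 CPM (0.27, limma adjusted p = 0.0101).

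POLD1, the catalytic subunit of the lagging-strand polymerase, fell from 80.2 and 73.2 to 66.2 and 65.5 CPM (log2 change -0.22, limma adjusted p = 0.00327). Its subunit POLD2 fell by 0.11 on the log2 scale (limma adjusted p = 0.0444), and POLD3 was at 0.0020 with overlapping groups. The polymerase alpha subunits POLA1 (0.070) and POLA2 (-0.057) were not called. Without control replicate 1 the calls of POLE2 (limma adjusted p = 0.0709), POLD1 (0.0654) and POLD2 (0.227) were lost, and that of POLD2 also without control replicate 2 (0.0555) and without knockdown replicate 1 (0.212). The adjusted p with DESeq2 was 0.0833 for PRIM1, 0.0783 for POLE, 0.207 for POLE2, 0.0609 for POLD1 and 0.326 for POLD2.

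The sliding clamp PCNA, which tethers the polymerases to DNA, measured 211.7 and 220.4 CPM in control libraries and 196.8 and 207.4 CPM after knockdown (log2 change -0.096, SE 0.035, limma adjusted p = 0.0438). Its size and call depended on single libraries: it was at -0.067 without control replicate 2 (limma adjusted p = 0.274) and at -0.059 without knockdown replicate 1 (0.289). None of the 5 subunits of its loader, RFC1 to RFC5, was called, with log2 changes from -0.061 for RFC4 to 0.068 for RFC1. The 95% intervals of these 5 lay between -0.18 and 0.16.

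Of the single-strand binding complex, RPA2 rose from 48.1 and 48.6 to 55.5 and 55.7 CPM (log2 change 0.20, SE 0.052, limma adjusted p = 0.00618). RPA1 rose from 186.2 and 192.0 to 209.0 and 203.5 CPM (0.12, limma adjusted p = 0.00731), and RPA3 was at -0.15 and not called. RPA1 was not called when control replicate 1 was left out (limma adjusted p = 0.0703). The flap nuclease FEN1 measured 80.5 and 95.4 CPM in control libraries and 83.5 and 79.9 CPM after knockdown, and the ligase LIG1 at 54.0 and 53.1 against 44.4 and 52.5 CPM. Neither was called, and in each 1 library set the result: FEN1 was called lower without control replicate 1 (-0.22, limma adjusted p = 0.00266) and at 0.021 without control replicate 2, and LIG1 was called lower without knockdown replicate 2 (-0.27, limma adjusted p = 0.00187). FEN1 shares 8.68% of its exonic bases with other genes, among them FADS2 on the same strand, which rose from 64.1 and 60.7 to 116.6 and 115.4 CPM.

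Of 4 genes of deoxynucleotide synthesis 2 rose and 1 fell, and the enzyme ribonucleotide reductase was split. The share called was 75.0%, against 33.4% of all genes tested and 40.1% of those in the members' CPM range. RRM2, the S-phase subunit of ribonucleotide reductase, rose from 408.1 and 427.1 to 460.2 and 464.9 CPM (log2 change 0.15, SE 0.028, limma adjusted p = 0.000568). RRM1, its large subunit, fell from 187.5 and 189.6 to 173.6 and 179.4 CPM (-0.095, limma adjusted p = 0.0358). Removing control replicate 1 (limma adjusted p = 0.0794), control replicate 2 (0.146) or knockdown replicate 1 (0.196) ended the RRM1 call. The thymidine kinase TK1 rose from 98.1 and 99.96 to 113.1 and 108.9 CPM (0.16, limma adjusted p = 0.00436). The thymidylate synthase TYMS was at 93.5 and 94.2 against 94.6 and 92.2 CPM and was not called. Of its exonic bases 46.6% also belong to genes on the opposite strand. Among these ENOSF1, at 25.7 and 24.9 against 22.3 and 22.8 CPM, was not called.

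Of the 7 E2F and pocket protein members 1 passed the test, the repressor E2F7 (14.3% called, against 33.4% of all genes tested). E2F7 measured 24.9 and 25.3 CPM in control libraries and 31.5 and 31.8 CPM after knockdown (log2 change 0.33, SE 0.069, limma adjusted p = 0.00138). With DESeq2 its adjusted p was 0.0665. Its close relative E2F8 measured 33.1 and 30.8 CPM in control libraries and 33.6 and 29.5 CPM after knockdown, with overlapping groups. The activators E2F1 (-0.11), E2F2 (-0.098) and E2F3 (-0.052) were not called. In each both knockdowns lay below both controls, and the groups did not overlap in 65.6% of all genes tested. RB1, at 91.7 and 91.4 against 95.9 and 100.4 CPM, was not called (log2 change 0.10, limma adjusted p = 0.0770). RB1 was called without knockdown replicate 1 (limma adjusted p = 0.0483) and with TMM undone (0.0316). The related pocket protein RBL1 was at 0.097 and not called. UHRF1, which guides the maintenance of DNA methylation behind the fork, was at 188.6 and 190.9 against 182.3 and 181.9 CPM and was not called either (-0.059).

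For 33 of the 35 members that were not called, the whole 95% interval of the change lay within 0.32 either way on the log2 scale. The largest bound among the 35 was 1.35-fold, for CCNE1. Each member had between 160 and 6414 reads in a library.

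Genes of the pathway outside the set also moved in both directions. Of 26 other licensing and fork genes 4 rose and 3 fell. The fork protector CLSPN rose from 66.9 and 65.2 to 77.1 and 76.0 CPM (log2 change 0.21, limma adjusted p = 0.00171) and the replication protein DONSON by 0.21, while CHTF18, of an alternative clamp loader, fell by 0.27 and TOPBP1, an origin firing factor, by 0.15. Of 20 further E2F targets of S phase 3 rose and 4 fell. The dUTPase DUT fell from 104.4 and 106.5 to 88.3 and 87.9 CPM (-0.26, limma adjusted p = 9.4e-05), and the kinase WEE1 rose by 0.27 and the histone chaperone ASF1B by 0.16. Cyclin A2 (CCNA2) was at 149.7 and 159.5 against 162.2 and 164.4 CPM and was not called. The shares called, 26.9% and 35.0%, stand beside 33.4% of all genes tested. DESeq2 did not call CLSPN (adjusted p = 0.0715), DONSON (0.104), CHTF18 (0.0728), TOPBP1 (0.130) or ASF1B (0.158), and limma without the trend did not call CLSPN (0.0588), DONSON (0.0640), TOPBP1 (0.126) or ASF1B (0.0951).

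Of 13 other E2F, DP, pocket and MuvB genes 2 fell and 11 were not called. Those that fell were E2F4, a factor that acts with the pocket proteins as a repressor, which fell from 179.8 and 186.3 to 162.7 and 151.0 CPM (log2 change -0.22, limma adjusted p = 0.000281), and E2F5, its relative, from 8.65 and 9.69 to 5.96 and 5.54 CPM (-0.63, limma adjusted p = 0.00186). E2F5 was not called with DESeq2 (adjusted p = 0.0557), nor E2F4 by limma without the trend (0.0906), and the share called of the 13 was 15.4%.

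Of 12 inhibitors and regulators of the G1/S kinases that were tested, 5 rose and 3 fell. The share called was 66.7%, against 33.4% of all genes tested and 40.1% of the genes in the members' CPM range. This list was not matched to that range. CDKN1A, which encodes the CDK inhibitor p21, measured 13.7 and 12.1 CPM in control libraries and 16.9 and 18.1 CPM after knockdown (log2 change 0.43, limma adjusted p = 0.00323). CDKN1B (p27) was at 110.4 and 112.3 against 105.8 and 111.3 CPM and was not called. CDKN2C, an inhibitor of CDK4 and CDK6, fell from 34.5 and 31.0 to 25.3 and 27.6 CPM (-0.30, limma adjusted p = 0.00521), and CDKN2A and CDKN2B had 0 reads in every library. MYC fell from 137.0 and 137.8 to 106.8 and 106.5 CPM (-0.36, limma adjusted p = 8.41e-07). The phosphatase CDC25A, which activates CDK2, rose from 26.2 and 26.0 to 32.5 and 33.3 CPM (0.33, limma adjusted p = 0.00122), and SKP2, which targets p27 for degradation, rose by 0.28. DESeq2 called MYC but not CDKN1A (adjusted p = 0.0882), CDKN2C (0.0960), CDC25A (0.0608) or SKP2 (0.0771), and limma without the trend did not call CDKN1A (0.0516) or CDKN2C (0.0917).

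Of 12 mitosis markers 5 rose and 2 fell. The share called was 58.3%, against 33.4% of all genes tested and 40.1% of the genes in the members' CPM range. Mean CPM of these markers ran from 80.3 to 626.3, so the list is not matched to that range. Of 8 housekeeping genes 2 rose and 3 fell (62.5% called), so a high share was also seen in a short list outside the pathway. Mean CPM of the housekeeping genes ran from 18.1 to 6440, so they are not matched in level to the other lists. MKI67 rose from 533.6 and 528.8 to 544.6 and 604.6 CPM (log2 change 0.11, limma adjusted p = 0.0243), AURKA by 0.19 and CENPF by 0.18. The MKI67 call was absent with DESeq2 (adjusted p = 0.363), and limma without the trend called none of MKI67 (adjusted p = 0.329), CENPF (0.134), AURKA (0.0689) and TOP2A (0.0750). TOP2A fell from 660.3 and 629.5 to 541.1 and 565.2 CPM (-0.22, limma adjusted p = 1.45e-05). BIRC5, the gene of survivin, fell from 104.9 and 101.0 to 68.0 and 68.2 CPM (-0.59, limma adjusted p = 1.78e-08).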

How the data were processed

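RNA was depleted of ribosomal RNA from 1 µg of total RNA and sequenced as single reads of 50 bases, per the labels' protocols. The submitters' processing notes name GRCh38 with STAR, bcl2fastq 2.17 and DESeq2. No counting program, annotation or strandedness is given in the sources used here. The authors deposited TMM-normalized CPM, 1 column per library. TMM scaling sets the bulk of genes equal and would remove a shift of most mRNAs in 1 direction. In each library 100% of values were whole multiples of the smallest step (within 0.1 read), so reads were recovered. Libraries of a group differed by more than counting noise (chi-square per gene 1.64 and 1.62).

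limma 3.58.1 (R 4.3.3) was run on log2(CPM + 0.5) with an abundance trend and group as the single term, two-sided, with Benjamini-Hochberg adjustment over 13661 genes. The pseudocount understates changes of low genes. edgeR 4.0.16 (2135 genes higher and 2371 lower) and DESeq2 1.42.0 on the recovered reads were alternatives; scripts were tested on simulated data. Values were given in full for called members with log2 changes of at least 0.32 and the best-supported called member of each role. Members, lists and pairs were chosen with earlier results of these data known. Exonic bases were taken from GENCODE release 29, in which 15 members share over 5% of theirs with another gene. Not all of these overlaps are named above. Named pseudogenes of 12 members could share their reads. Rows whose symbols had become dates (28) stayed in the fit. Of the genes the naming rule picks, 1 is not reported here.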

Additional observations from a re-analysis of the deposited data

How the results depend on the processing

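With 2 libraries a group and log2 changes mostly under 0.3, the number of calls depends on the estimate of the spread. Members called higher and lower (13 and 11 in the main test) were 6 and 1 with limma without the abundance trend, 4 and 4 with DESeq2, and 16 and 6 with TMM undone, and 7 were lower with no filter on low values. All genes called were 916 higher and 1016 lower without the trend and 993 and 1181 with DESeq2. With no trend 17 of the 24 called members lost the call, with DESeq2 16 and with edgeR 1; the cause was not tested. With 1 library left out in turn, members called higher ran from 10 to 14 and lower from 5 to 11, all genes higher from 1823 to 2029 and lower from 1842 to 2059, and the members' median from -0.0387 to 0.0187, where the lone sample of an arm is assumed to vary like the other group. EMP2 ran from -2.44 to -2.42. The replicate numbers did not pair the libraries (correlation of deviations -0.003), and the fit with a replicate block called 13 members higher and 9 lower, GINS3 (adjusted p = 0.0568) and POLD2 (0.0646) losing the call.

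Members that were not called and lie near 0 changed sign: with quantile scaling CDT1 (0.0088), RFC2 (0.0046), POLD3 (-0.00076), TYMS (0.0020) and CDK2 (0.0012), with TMM undone CDT1 (0.021), MCM7 (0.015), RFC2 (0.021), RFC5 (0.00079), TYMS (0.015), E2F8 (0.0019) and CDK2 (0.014), with edgeR RFC3 (-0.0032) and POLD3 (-0.0035), and with DESeq2 RFC3 (-0.00024) and POLD3 (-0.0011). With a library left out the log2 changes of several ran across 0 as well: from -0.029 to 0.015 for MCM7, -0.032 to 0.037 for RFC3, -0.044 to 0.048 for POLD3, -0.11 to 0.073 for E2F8, -0.10 to 0.036 for ORC1, -0.051 to 0.049 for CDT1, -0.036 to 0.035 for RFC2, -0.22 to 0.021 for FEN1, -0.054 to 0.040 for CDK2, -0.016 to 0.14 for MCM10 and -0.025 to 0.012 for TYMS. None was called under the setting that turned its sign. TMM undone moved the median of all genes from 0.0037 to 0.025.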
